A study of Mus musculus with 8 samples.

Results

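The genes examined were 59 proliferation genes, 38 that act in mitosis and 21 that act in DNA replication, taken as a list of gene symbols and looked up among all probes of the array. The array carried 25697 probes for 16593 named genes, and 89 of these probes represented 52 of the listed genes. After the filter on dim probes 45 genes were measured, 29 of mitosis and 16 of replication, among 9545 measured genes in all. Mitosis and replication genes are described apart throughout.

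Cells duplicate their DNA in S phase with a helicase, polymerases, a sliding clamp and a nucleotide supply, and divide in mitosis with kinases, a spindle, kinetochores and a contractile ring. Most genes of both sets are transcribed in waves, those of replication around the start of S phase and those of mitosis in G2 and M phase, so their messengers mark cells in the cycle. In resting (telogen) skin the follicle bulge is known to hold stem cells that seldom divide, while the basal layer of the epidermis between follicles is renewed continually.

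The study used adult Gli1-eGFP/+ mice on an outcrossed Swiss Webster background, in which GFP is driven from Gli1, a target and effector of hedgehog signalling. Every group came from animals with this reporter allele, the GFP-negative groups included, and each sample pooled 2 mice. Viable basal keratinocytes of telogen back skin, stained for α6 integrin, were sorted into GFP-positive cells (Gli1+, replicates 2 and 3), GFP-negative CD34-positive cells of the bulge (CD34+, replicates 1 to 3) and GFP-negative CD34-negative cells (IFE, replicates 1 to 3). The IFE gate is described as mainly interfollicular epidermis, and it also takes in cells of the infundibulum, the follicle's opening. RNA of Gli1+ replicate 1 was, per the labels, too poor for an array. Samples with the same number came from the same pool of animals. The 8 samples were read on 8 Illumina MouseRef-8 bead arrays, whose number limits the precision, and p-values measure the spread between pools of animals.

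The sorted cells carried keratinocyte markers at like levels on all arrays, with 8 or 9 of the 9 measured markers detected on each. Gli1 itself had log2 intensities of 8.82 and 8.36 on the Gli1+ arrays, 7.06, 8.42 and 7.35 on the CD34+ arrays and 5.07, 5.32 and 5.01 on the IFE arrays, so that CD34+ replicate 2 lay between both Gli1+ arrays. Between 12209 and 12601 probes were detected on a CD34+ array and between 11027 and 11680 on an IFE array, whereas Gli1+ replicates 2 and 3 had 11188 and 9925. Across genes, which are not independent replicates, the log2 values of both Gli1+ arrays correlated at 0.82, whereas no pair of CD34+ arrays fell under 0.933 and no pair of IFE arrays under 0.943.

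Promoters are shown first, because mitosis and replication genes are known to differ in the elements that time their transcription. In mitosis genes a cell cycle homology region (CHR), bound by the MuvB complexes, is often found near a CCAAT box, the site of NF-Y, whereas replication genes carry sites for E2F factors. RefSeq promoter windows of GRCm38.p6, from 250 bases before to 50 bases after a gene's start, were on hand for 49 of the 59 genes, 32 of mitosis with 35 windows and 17 of replication with 22 windows. The CHR letters TTTGAA or TTCGAA, read on both strands, stood in 29 of the 35 mitosis windows (82.9%), in 4 of the 22 replication windows (18.2%) and in 19.2% of all 32851 windows of the table. The E2F core was searched as TTTGGCG, or as TTTCGCG, or as TTTCCCG, or as TTTGCCG, and stood in 17.1% of mitosis windows, 40.9% of replication windows and 6.7% of all windows. CCAAT was present in 74.3%, 59.1% and 37.4% of these windows. A match describes letters and is not evidence of binding.

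The windows below belong to the 3 mitosis genes with the smallest adjusted p in CD34+ against IFE cells, with capitals for CHR, CCAAT and E2F letters on either strand. Plk1 spans chr7:122159185-122159484 on the plus strand, Kif23 chr9:61946750-61947049 on the minus strand and Aspm chr1:139454523-139454822 on the plus strand.
Plk1: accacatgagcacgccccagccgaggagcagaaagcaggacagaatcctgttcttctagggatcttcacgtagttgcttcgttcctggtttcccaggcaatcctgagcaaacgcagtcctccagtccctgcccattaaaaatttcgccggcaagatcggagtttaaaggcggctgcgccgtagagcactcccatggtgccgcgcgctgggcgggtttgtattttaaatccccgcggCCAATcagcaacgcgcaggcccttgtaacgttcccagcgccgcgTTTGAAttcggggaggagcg
Kif23: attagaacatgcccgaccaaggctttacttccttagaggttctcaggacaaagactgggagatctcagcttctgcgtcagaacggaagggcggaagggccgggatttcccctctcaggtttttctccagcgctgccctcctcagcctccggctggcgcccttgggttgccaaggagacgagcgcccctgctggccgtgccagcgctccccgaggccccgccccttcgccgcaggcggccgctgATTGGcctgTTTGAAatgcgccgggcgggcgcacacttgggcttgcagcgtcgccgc
Aspm: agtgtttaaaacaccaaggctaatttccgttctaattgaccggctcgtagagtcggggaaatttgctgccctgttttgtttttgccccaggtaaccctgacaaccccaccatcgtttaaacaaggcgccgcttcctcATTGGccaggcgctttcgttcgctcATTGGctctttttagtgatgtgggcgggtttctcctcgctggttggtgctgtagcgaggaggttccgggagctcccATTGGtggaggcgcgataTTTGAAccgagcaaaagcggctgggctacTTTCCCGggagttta
In each of them a single CHR match lies just past the annotated start, beginning 30, 2 and 6 bases after it for Plk1, Kif23 and Aspm. A CCAAT box precedes it in each, beginning 14, 7 and 12 bases before the start for the nearest box. Aspm has 3 CCAAT boxes and an E2F core as well.

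From the replication genes, Lig1, the one past the threshold in any comparison, and Mcm6, the licensing gene with the highest level, are shown with the same capitals. Mcm6, and the window of Lig1 among its 3, were picked after their motifs were seen. Lig1 spans chr7:13278576-13278875 on the plus strand and Mcm6 chr1:128359656-128359955 on the minus strand.
Lig1: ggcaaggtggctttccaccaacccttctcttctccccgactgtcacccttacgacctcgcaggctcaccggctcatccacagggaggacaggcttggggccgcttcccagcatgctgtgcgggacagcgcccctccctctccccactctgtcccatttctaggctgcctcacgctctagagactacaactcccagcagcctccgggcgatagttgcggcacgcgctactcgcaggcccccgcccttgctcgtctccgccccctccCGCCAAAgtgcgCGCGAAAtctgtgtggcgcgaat
Mcm6: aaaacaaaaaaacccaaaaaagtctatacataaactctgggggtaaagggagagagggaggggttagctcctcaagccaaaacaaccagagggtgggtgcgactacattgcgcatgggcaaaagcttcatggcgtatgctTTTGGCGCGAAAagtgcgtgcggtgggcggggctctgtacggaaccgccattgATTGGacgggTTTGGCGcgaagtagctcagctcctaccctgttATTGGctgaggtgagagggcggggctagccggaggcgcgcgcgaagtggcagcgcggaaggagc
The Lig1 window shown has 2 E2F cores after its start and neither CHR nor CCAAT letters. The other 2 Lig1 windows hold none of the E2F, CHR or CCAAT letters. Mcm6 has 3 E2F cores, of which those on opposite strands at bases 141 to 147 and 146 to 152 of the window overlap, and 2 CCAAT boxes, with no CHR letters.

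**Figure D1:**
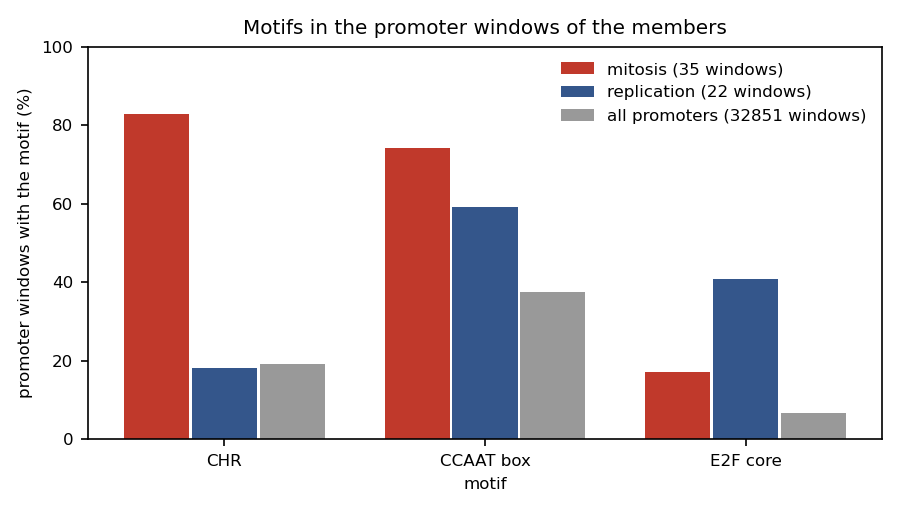
Share of promoter windows (vertical axis, %) that hold CHR, CCAAT box or E2F core letters (horizontal axis), for mitosis genes, replication genes and all promoters of the table. CHR letters stand in 82.9% of mitosis windows and 18.2% of replication windows, and E2F cores in 17.1% and 40.9%.

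CD34+ bulge cells were set against IFE cells to see how far the resting bulge and the renewing epidermis differ in messengers of the cell cycle. Mitosis genes were lower in CD34+ cells: 11 of the 29 measured fell past the threshold (limma, adjusted p under 0.05 over all 9545 genes) and none rose. Among all genes 1.85% were lower and 2.94% higher by the same rule. Replication genes gave no call in 16 measured. An unadjusted p under 0.05 was found for 6 of them, and for 1613 of all 9545 genes. The median log2 difference, CD34+ minus IFE, was -1.25 over the mitosis genes and -0.56 over the replication genes, against -0.01 over all genes. All 3 CD34+ arrays lay below all 3 IFE arrays for 25 of the 29 mitosis genes and 9 of the 16 replication genes, where 13.7% of all genes did so. No gene of either set lay the other way round, where 13.9% of all genes did. In sorted bulk cells, fewer cycling cells and less RNA per cell cannot be told apart.

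The filter bears on these counts, since 8 of the 29 measured mitosis genes (Cenpe, Nuf2, Ube2c, Ncapd2, Cdc25c, Cep55, Bub1b and Tpx2) were detected on no CD34+ array, and 2 of them, Nuf2 and Ncapd2, on IFE arrays only. No measured replication gene was limited in that way. Without the filter, 8 of 32 mitosis genes and none of 20 replication genes were lower, with 0.934% of all genes lower, and the median differences were -1.23 and -0.51. All 3 IFE arrays detected 25 of the 29 mitosis genes, 14 of the 16 replication genes and 68.6% of all genes. All 3 CD34+ arrays detected 14, 13 and 73.8%. The difference held in each pool of animals, with 28 of 29 mitosis genes lower in CD34+ cells in pools 1, 2 and 3. Their median differences were -1.08, -1.41 and -1.36. Of 16 replication genes 15, 15 and 13 were lower. Among all 9545 genes 4801, 4824 and 4889 were lower, with medians of -0.0058, -0.012 and -0.02.

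**Figure D2:**
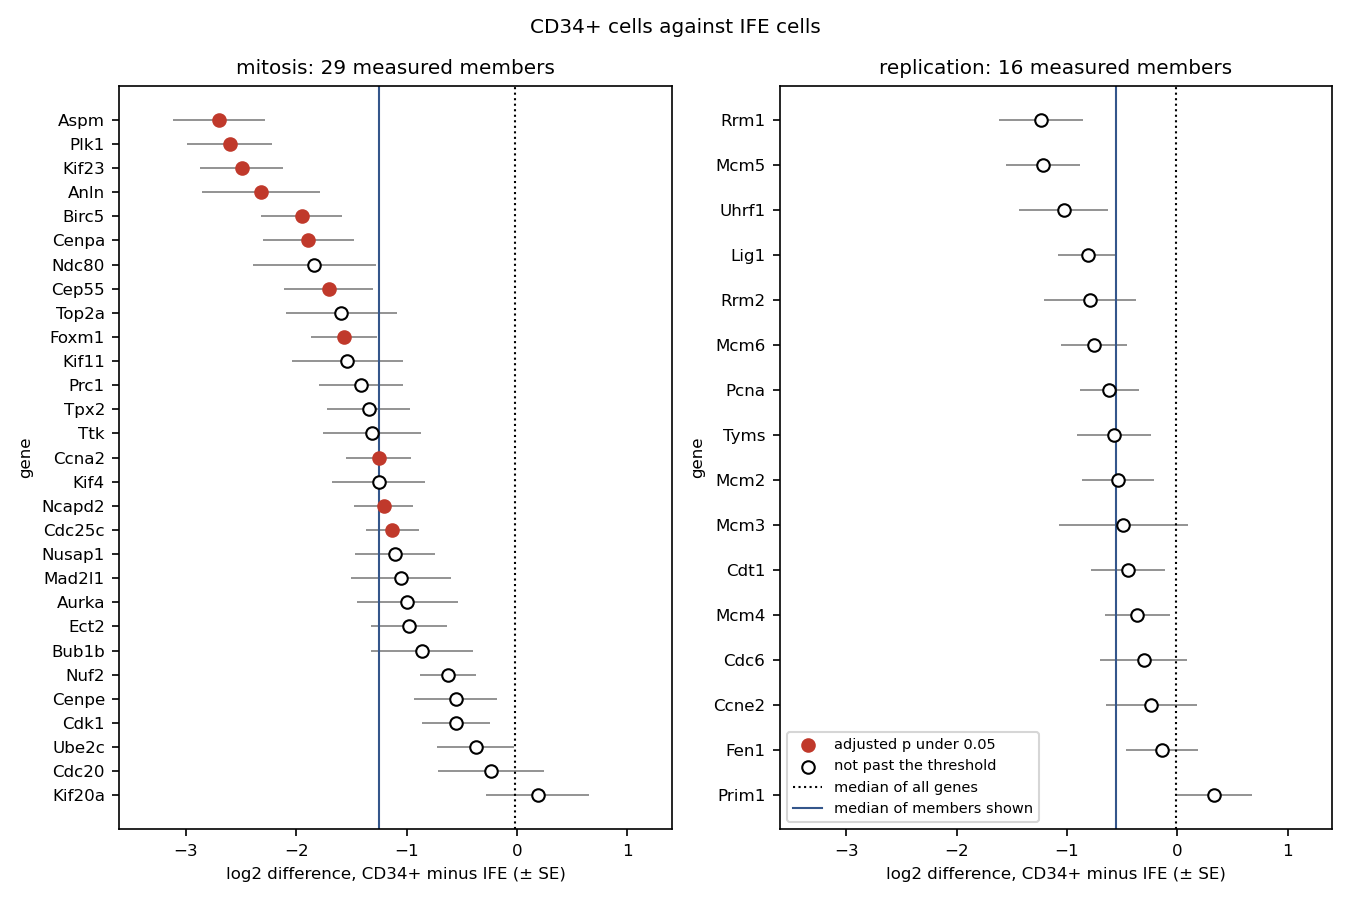
Log2 difference, CD34+ minus IFE, with its SE (horizontal axis) for each measured mitosis gene (left) and replication gene (right). Filled points passed the threshold. All 11 are mitosis genes, and Kif20a and Prim1 are the only genes right of 0.

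Plk1, the polo-like kinase that drives entry into mitosis and cytokinesis, had log2 intensities of 5.21, 6.21 and 6.54 on the CD34+ arrays, against 8.77, 8.40 and 8.59 on the IFE arrays. Every CD34+ array was thus well over 1 log2 unit below the lowest IFE array, and the gene was 6.08-fold lower (log2 difference -2.60 ± 0.39 SE, adjusted p = 0.0045). In the raw scan the same probe read 133 ± 8.6, 163 ± 11.8 and 205 ± 14.4 intensity units (SE over beads) on the CD34+ arrays and 450 ± 45.5, 382 ± 26.8 and 488 ± 36.7 on the IFE arrays. The other 4 measured mitotic kinases did not pass the threshold. They were Ttk (-1.31), Aurka (-0.99), Bub1b (-0.86) and Cdk1 (-0.55), with adjusted p from 0.15 to 0.42. Cdk1, the kinase whose activity defines mitosis, was detected on all 8 arrays.

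Among 8 measured spindle proteins and kinesins, 2 fell. Aspm, a spindle pole protein whose loss causes small brain size in humans, was at 6.24, 5.85 and 6.06 on the CD34+ arrays and at 8.42, 8.77 and 9.05 on the IFE arrays. The groups were far apart, and the fold was 6.49 lower in CD34+ cells (-2.70 ± 0.42, adjusted p = 0.00569). Kif23, the kinesin of centralspindlin at the midzone, read 5.04, 5.70 and 5.12 against 8.09, 7.46 and 7.78. It was 5.63-fold lower (-2.49 ± 0.38, adjusted p = 0.00486). The remaining 6 ran from Kif11 at -1.54 to Kif20a at 0.19. Kif20a, a kinesin of the late midzone, was at 6.42, 6.53 and 7.24 in CD34+ cells and 6.55, 6.51 and 6.56 in IFE cells, and it was the one mitosis gene with a positive difference.

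Cytokinesis genes gave 2 calls in 3. Anln, the anillin scaffold of the contractile ring, stood at 5.94, 6.07 and 5.36 in CD34+ cells and 8.20, 7.85 and 8.28 in IFE cells, which made it 4.99-fold lower (-2.32 ± 0.53, adjusted p = 0.0379). Its other kept probes gave -2.44 and -0.84, neither past the threshold. Cep55, which recruits the abscission machinery to the midbody, was not detected on any CD34+ array (4.73, 4.73 and 4.61) and read 5.75, 6.79 and 6.65 on the IFE arrays. The drop was at least 2.45-fold (-1.70 ± 0.40, adjusted p = 0.042). Ect2, the other cytokinesis gene, had a difference of -0.98 ± 0.34 that did not pass.

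At the centromere and kinetochore, 2 of 5 measured genes fell. Birc5 (survivin), a subunit of the chromosomal passenger complex, was at 5.37, 4.94 and 4.61 against 7.14, 6.93 and 6.70, a 3.86-fold drop (-1.95 ± 0.37, adjusted p = 0.0158). Both other kept Birc5 probes gave smaller differences, -1.09 and -1.02, that did not pass, and the mean of its probes did not pass (adjusted p = 0.0668). Cenpa, the histone H3 variant of centromeres, was at 6.16, 6.42 and 5.90 against 8.49, 7.79 and 7.87, a 3.71-fold drop (-1.89 ± 0.41, adjusted p = 0.0305). On the probes used, the CD34+ and IFE arrays were apart for both genes by more than 1 log2 unit. Ndc80, of the complex that holds microtubules, had -1.83 ± 0.56 with an adjusted p of 0.106 (-0.27 on a second kept probe), and its partner Nuf2 had -0.62 ± 0.25 near the detection limit.

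The transcription factor Foxm1 and both measured genes of the cyclin and Cdk1 activation group fell as well. Foxm1, which drives G2 and M phase genes, had 6.14, 6.31 and 6.94 in CD34+ cells and 8.19, 7.85 and 8.04 in IFE cells, 2.96-fold lower (-1.56 ± 0.30, adjusted p = 0.0174). A second Foxm1 probe gave -1.73. Ccna2 (cyclin A2), which acts in S and G2 phase, was at 4.98, 5.23 and 4.76 against 6.19, 6.38 and 6.16 (-1.25 ± 0.29, adjusted p = 0.04). These cyclin levels were low, and 1 of 3 CD34+ arrays detected the probe. Cdc25c, the phosphatase that activates Cdk1, was detected on no CD34+ array (4.78, 4.70 and 4.73) and on every IFE array (5.86, 5.89 and 5.84), and was at least 1.69-fold lower (-1.13 ± 0.24, adjusted p = 0.0272). The other kept Cdc25c probe gave a difference of 0.0037, so the probes disagreed.

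Of 2 chromosome structure genes, Ncapd2, a condensin I subunit, was undetected in CD34+ cells (4.90, 5.06 and 4.53) and read 5.90, 5.99 and 6.22 in IFE cells. It was at least 1.91-fold lower (-1.21 ± 0.27, adjusted p = 0.0332), while a second kept probe gave -0.47. Top2a, the topoisomerase that untangles sister chromatids, had -1.59 ± 0.50 and an adjusted p of 0.119. No call was made among checkpoint and anaphase promoting complex genes. Cdc20, which activates that complex, had the highest level of the 3, at 7.90, 6.18 and 7.09 in CD34+ cells and 7.05, 7.59 and 7.23 in IFE cells. These groups overlapped (-0.24 ± 0.48, adjusted p = 0.866), and its 3 other kept probes gave -0.56, -0.91 and -1.87. Mad2l1, of the spindle checkpoint, had -1.05 ± 0.46, and Ube2c, the ubiquitin carrier of the complex, had -0.37 ± 0.35.

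Calls for single genes depended on the arrays and on the block. Plk1, Kif23 and Aspm stayed past the threshold in all 20 alternatives, with adjusted p of at most 0.0314, 0.0336 and 0.0399. Leaving out CD34+ replicate 1, 2 or 3 gave counts of 4, 3 and 4 mitosis genes, and leaving out IFE replicate 1, 2 or 3 gave 4, 3 and 3. Fewer of all genes were lower in these fits too, against 1.85% with all arrays. The shares were 0.885%, 0.744% and 0.843% without the CD34+ arrays and 0.52%, 0.663% and 0.512% without the IFE arrays. Gli1+ replicates 2 and 3 are in neither group compared but share the fit, the filter, the normalisation and the choice of probe. The median difference over mitosis genes was -1.25 without Gli1+ replicate 2 and -1.28 without Gli1+ replicate 3. The count did depend on them: with only the CD34+ and IFE arrays fitted, 18 mitosis genes were lower, where 4.01% of all genes were. Anln, Cenpa, Ccna2, Cdc25c and Ncapd2 missed the threshold without any one of the 6 arrays compared, with adjusted p up to 0.149, 0.132, 0.145, 0.977 and 0.38. Cep55 missed it without each of these arrays but IFE replicate 1 (up to 0.168), and Foxm1 without each but CD34+ replicate 3 (up to 0.0847). Birc5 missed it without each but CD34+ replicate 1, and also without Gli1+ replicate 3, when another of its probes was used (up to 0.0866). With the pool number as a block the count was 7, where 1.33% of all genes were lower. Ccna2 (adjusted p = 0.089), Cdc25c (0.0692), Cenpa (0.057), Cep55 (0.067) and Ncapd2 (0.0751) dropped out, while Ndc80, the kinetochore gene above, came in (0.047).

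**Figure D3:**
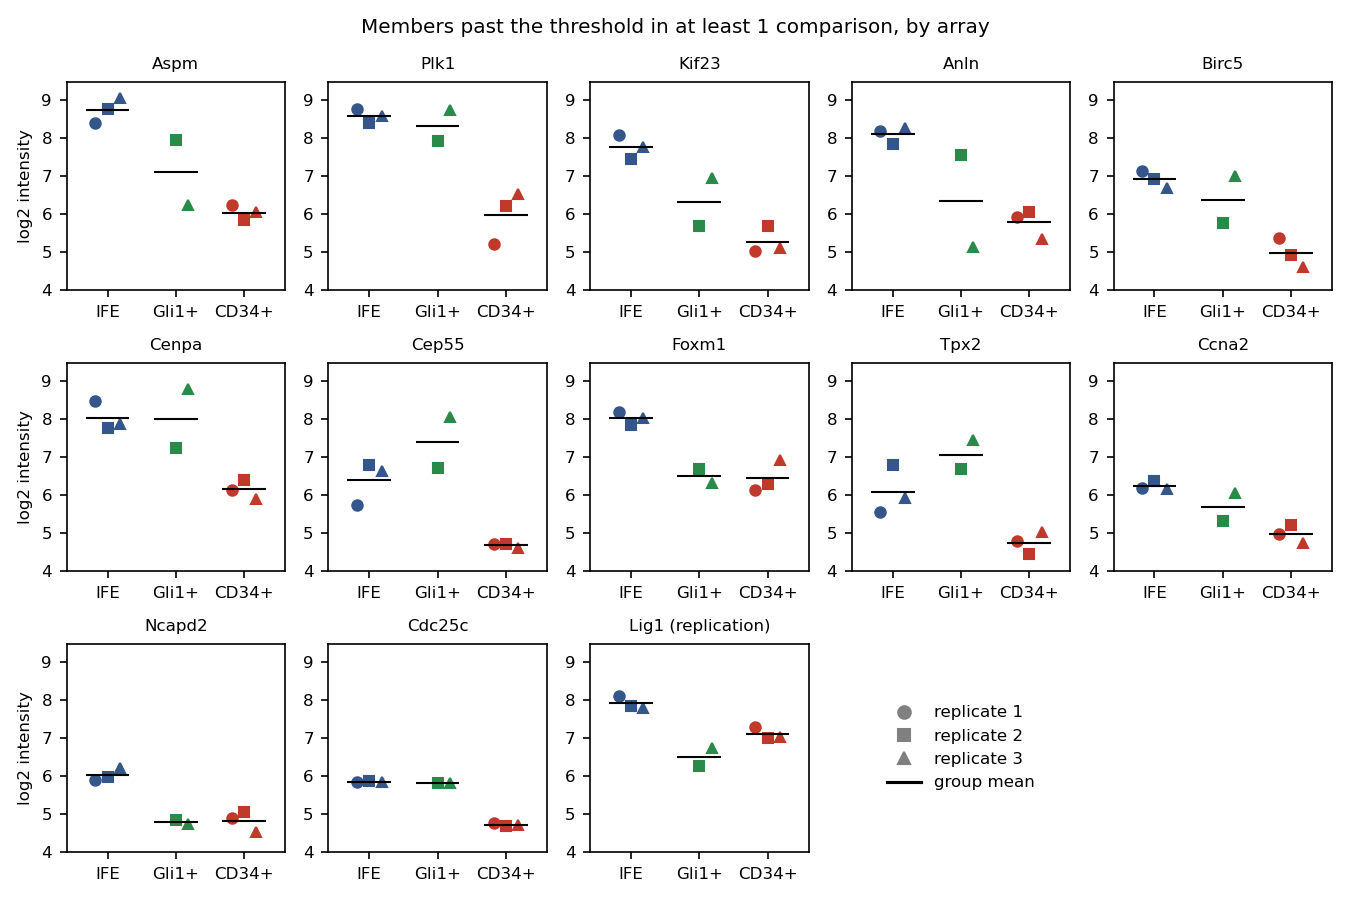
Log2 intensity (vertical axis) on each array of IFE, Gli1+ and CD34+ cells (horizontal axis) for the genes past the threshold in at least 1 comparison, with the symbol giving the replicate and the bar the group mean. In all 11 mitosis genes called in CD34+ against IFE cells the CD34+ points lie below every IFE point, and both Gli1+ points of Cep55 and Tpx2 lie far above the CD34+ points.

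Replication genes differed less between CD34+ and IFE cells, from -1.23 for Rrm1 to 0.33 for Prim1, a primase subunit, and none passed the threshold. Origin licensing genes, which load the Mcm helicase, were all negative in 7 measured on the brightest probe, with a median of -0.49. Mcm6, a helicase subunit and the highest of them, had 9.29, 9.08 and 8.90 on the CD34+ arrays and 10.26, 9.49 and 9.78 on the IFE arrays. Its groups did not overlap, but the difference of -0.75 ± 0.30 had an adjusted p of 0.23. On the other kept Mcm6 probes the groups overlapped, with differences of -0.59, -0.15 and -0.08. Mcm5, another subunit, was at 7.49, 7.73 and 8.13 against 9.58, 8.70 and 8.72 (-1.22 ± 0.34), and had the smallest adjusted p of any replication gene in this comparison, 0.0785. Mcm4 (-0.36), Mcm2 (-0.54), Mcm3 (-0.49), Cdt1 (-0.45) and Cdc6 (-0.30) were closer to 0. Both other kept Mcm4 probes were positive, at 0.54 and 0.58, so the sign for Mcm4 depends on the probe.

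For nucleotide supply, Rrm1, the large subunit of ribonucleotide reductase, had 7.25, 8.17 and 7.60 in CD34+ cells and 8.91, 8.77 and 9.04 in IFE cells. The difference of -1.23 ± 0.38 had an adjusted p of 0.11. Its partner Rrm2 had -0.79 and Tyms, thymidylate synthase, -0.57. Pcna, the sliding clamp, read 8.51, 8.58 and 8.38 against 9.18, 9.38 and 8.77 (-0.62 ± 0.27, adjusted p = 0.279), and Lig1, the ligase that joins Okazaki fragments, had -0.81 ± 0.27 (adjusted p = 0.139). Fen1, the flap nuclease, had -0.14 ± 0.32. Uhrf1, which guides maintenance DNA methylation behind the fork, was at 7.53, 6.51 and 6.70 against 8.58, 7.81 and 7.44. One CD34+ array thus exceeded an IFE array (-1.03 ± 0.40, adjusted p = 0.22). Ccne2 (cyclin E2), which acts at entry into S phase, had 5.98, 5.44 and 4.99 against 6.06, 6.14 and 4.93, near the detection limit (-0.24 ± 0.41). When only the CD34+ and IFE arrays were fitted, 18 mitosis genes and 2 replication genes passed, with 8.59% of all genes called in either direction against 4.8% with all arrays.

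Other listed genes gave less. Bub1, Ccnb2 and Kif2c of mitosis and Mcm7, Cdc45, Pole and Ccne1 of replication had probes that were detected on at most 1 array, and were not kept. Kif2c, a kinesin that depolymerises microtubules, read 6.21 on the array of Gli1+ replicate 3 and at most 5.26 elsewhere. Mcm7, a helicase subunit, read 6.27 on IFE replicate 1 and at most 5.03 elsewhere. Aurkb, Ccnb1, Cenpf, Racgap1, Ncapg, Mki67 and Gins2 had no probe under these symbols and were not analysed here. In 16 measured genes more than 1 probe was kept, and the brightest was used.

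Wider lists of cell cycle genes, none of them among the 59, were read on the same arrays, so they are not independent of the results above. These lists were also chosen with earlier results of these data known. Their mitosis genes had a lower median than their replication genes. Of 85 further mitosis genes 44 were measured, and 5 fell in CD34+ against IFE cells while none rose, with a median difference of -0.71. Among all genes 1.85% were lower, and the median was -0.01. Sgo1 (shugoshin), which guards sister cohesion at centromeres, was at 6.10, 6.05 and 5.94 in CD34+ cells and 8.44, 8.49 and 8.02 in IFE cells (-2.28 ± 0.26, adjusted p = 0.00117). Cks2, a small subunit of cyclin dependent kinases, was at 5.84, 5.55 and 6.17 against 8.46, 8.09 and 8.22 (-2.41 ± 0.28, adjusted p = 0.00123). Both were lower on every CD34+ array than on any IFE array, by well over 1 log2 unit. Wee1, the kinase that holds Cdk1 inactive, had -1.79 ± 0.30 (adjusted p = 0.00831, 0.0508 without IFE replicate 1), and the spindle kinesin Kif15 had -1.81 ± 0.33 (adjusted p = 0.013). Kif15 stayed past the threshold without IFE replicate 2 only, and its adjusted p otherwise reached 0.52 without IFE replicate 1, when another probe was used. Of 53 further replication genes 40 were measured and none was called (5 with an unadjusted p under 0.05, median -0.08), and of 20 regulators of cell cycle transcription 16 were measured and none was called (2 unadjusted, median -0.17). Among all 9545 genes 1613 had an unadjusted p under 0.05.

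Markers of other cell types also differed between these fractions. The fibroblast and dermal papilla list, with 4 of 12 genes measured, summed to 1592 to 1956 intensity units on CD34+ arrays, where all 4 were detected, and to 232 to 445 on IFE arrays, where 1 to 3 were. Col3a1, Lum, Pdgfra, Pdgfrb and Twist2 of this list were detected on no array. T cell markers, with 7 of 10 measured, summed to 1137 to 1522 on CD34+ arrays with 2 to 5 detected and to 1429 to 1818 on IFE arrays with 4 to 6 detected. Melanocyte markers, with 3 of 8 measured, summed to 316 to 421 on CD34+ arrays with 1 to 3 detected and to 98.7 to 127 on IFE arrays with at most 2 detected, and 1 of them was higher in CD34+ cells (3.05 log2 units, adjusted p = 0.00123). The other 2 had negative differences, and the median of the 3 was -0.07. Dct, Tyr and Tyrp1 were detected on no array. Their part in the differences above was not tested.

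Gli1+ cells lay between both other groups on average. The mean log2 level over the 29 mitosis genes was 6.91 ± 0.07 in IFE cells (SD, n = 3), 6.24 and 6.51 on the Gli1+ arrays and 5.59 ± 0.09 in CD34+ cells (SD, n = 3). Over the 16 replication genes it was 7.46 ± 0.21, then 7.25 and 7.10, then 6.89 ± 0.07. Both Gli1+ arrays detected 22 of the 29 mitosis genes each, against 17 or 18 on the CD34+ arrays and 25, 27 and 29 on the IFE arrays. Of all measured genes, Gli1+ replicates 2 and 3 detected 78.6% and 70.6%. The CD34+ arrays detected 84.3% to 86.6% and the IFE arrays 77.7% to 81.2%.

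**Figure D4:**
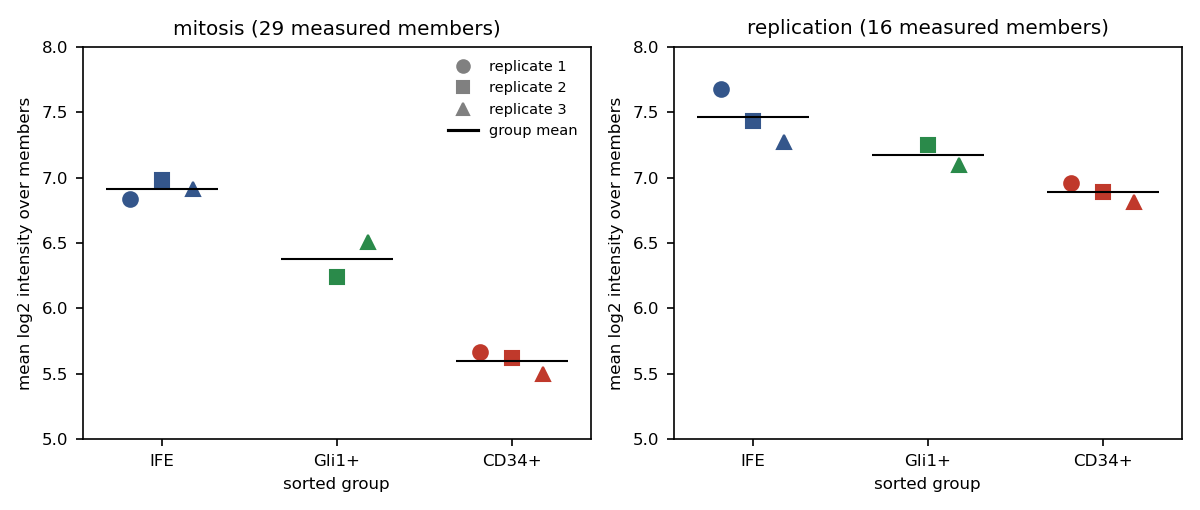
Mean log2 intensity over the measured mitosis genes (left) and replication genes (right) on each array (vertical axis), by sorted group (horizontal axis), with bars for the group means. In both panels the 3 CD34+ arrays lie below the 2 Gli1+ arrays and these below the 3 IFE arrays. The replication values lie closer together, with 7.25 on the upper Gli1+ array and 7.27 on the lowest IFE array.

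The Gli1+ arrays disagreed with each other more in mitosis genes than in others. The median absolute difference between replicates 2 and 3 was 1.22 log2 units over mitosis genes, with 17 of 29 above 1, and 0.71 over replication genes, against 0.63 over all genes. Between pairs of arrays within the CD34+ and within the IFE group it was 0.32 and 0.34 for mitosis genes. The sign was mixed, with 11 of the 29 mitosis genes higher in replicate 2. Anln read 7.56 and 5.13 and Kif20a 8.0 and 6.01, higher in replicate 2, while Top2a read 5.21 and 7.57 and Kif11 6.68 and 8.71, higher in replicate 3. Comparisons with Gli1+ cells rest on these arrays.

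**Figure D5:**
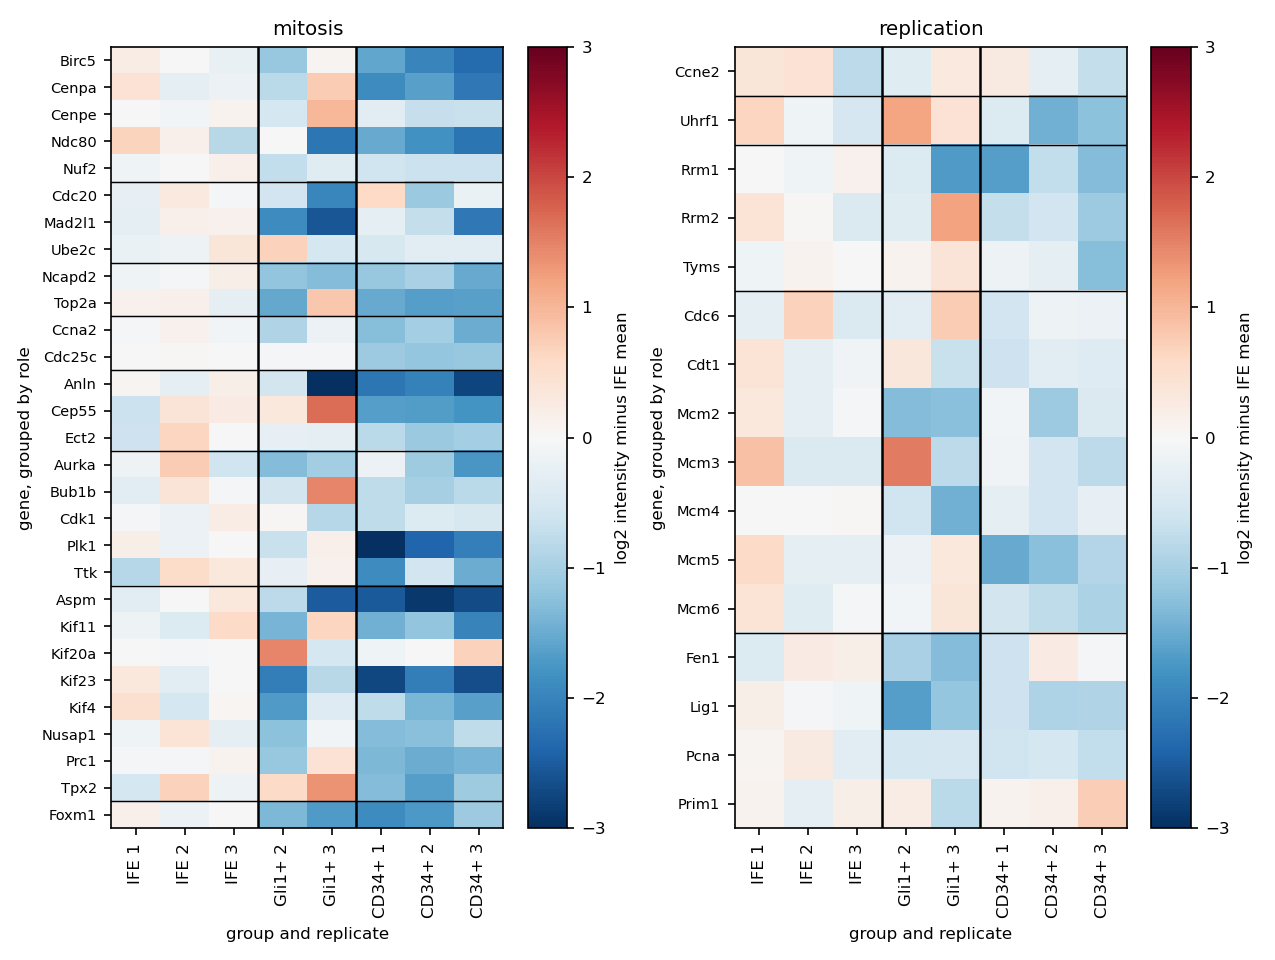
Log2 intensity minus the gene's IFE mean (colour, blue lower and red higher) for each measured mitosis gene (left) and replication gene (right), by group and replicate (horizontal axis), with genes ordered by role. The CD34+ columns are blue for nearly all mitosis genes, and the 2 Gli1+ columns differ from each other gene by gene.

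The comparison of Gli1+ with IFE cells asks whether hedgehog-responding cells differ from the epidermis in these messengers. No mitosis gene passed the threshold in 29 (limma, 9 with an unadjusted p under 0.05). Negative differences were found for 23 of them, and for 53.8% of all genes. The median was -0.40 over mitosis genes, against -0.05 over all genes. At the threshold 0.859% of all genes were lower and 1.3% higher, and 1683 of all 9545 genes had an unadjusted p under 0.05. Both Gli1+ arrays lay below all IFE arrays for 37.9% of mitosis genes (11 of 29) and 37.5% of replication genes (6 of 16), where 18% of all genes did so. They lay above all IFE arrays for none, where 13.5% of all genes did. Foxm1 came closest: it was at 6.69 and 6.33 on the Gli1+ arrays, below the lowest IFE value of 7.85 (-1.52 ± 0.34, adjusted p = 0.0514). Mad2l1 had the most negative difference, with 5.79 and 5.11 against 7.40, 7.82 and 7.79 (-2.22 ± 0.51, adjusted p = 0.0568). Cep55, at 6.72 and 8.07, and Tpx2, at 6.69 and 7.46, had positive differences of 1.00 and 0.97 that did not pass. With 1 Gli1+ array left, that array is assumed to vary like the CD34+ and IFE arrays, so the counts carry no replication of Gli1+ cells. Without Gli1+ replicate 2 they were 6 lower and 2 higher, when 12.8% of all genes were called in either direction against 2.16% with both. Without Gli1+ replicate 3 they were 2 and 0, and without CD34+ replicate 3 they were 1 and 0.

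Of the 16 replication genes 1 fell in Gli1+ cells. Lig1 was at 6.27 and 6.76 on the Gli1+ arrays and 8.11, 7.87 and 7.81 on the IFE arrays, with the CD34+ arrays between them at 7.30, 7.0 and 7.04. It was 2.66-fold lower than in IFE cells (-1.41 ± 0.30, adjusted p = 0.048). The call was lost with the pool number as a block (adjusted p = 0.125) and without any one CD34+ or IFE array (up to 0.154 without IFE replicate 1). With the block 0.126% of all genes were lower, against 0.859% in the main fit. Of its other kept probes 1 gave -1.37 and 2 gave 0.26 and 0.12, so the probes disagreed. The median over replication genes was -0.10, and 5 had an unadjusted p under 0.05, among them Mcm2, at 4.69 and 4.73 and so not detected on either Gli1+ array, with an adjusted p of 0.106. Uhrf1 was at 9.13 and 8.38 in Gli1+ cells, a difference of 0.81 ± 0.45 that did not pass, and its second kept probe went the other way (-0.64). None of the wider mitosis, wider replication and cell cycle transcription genes was called here (9, 5 and 2 with an unadjusted p under 0.05).

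Gli1+ cells were then compared with CD34+ cells, the GFP-negative fraction of the bulge. As described, the Gli1+ gate did not select on CD34. This comparison shares its arrays with those above. In Gli1+ cells 3 of the 29 mitosis genes rose and none fell, where 0.576% of all genes were higher and 0.849% lower (1.42% together). Cep55 was at 6.72 and 8.07 against 4.73, 4.73 and 4.61, at least 4.89-fold higher (2.70 ± 0.45, adjusted p = 0.0294). Tpx2, which activates Aurora A on the spindle, was at 6.69 and 7.46 against 4.80, 4.45 and 5.03, at least 3.91-fold higher (2.31 ± 0.42, adjusted p = 0.0383). Plk1 was at 7.93 and 8.75 against 5.21, 6.21 and 6.54, 5.09-fold higher (2.35 ± 0.43, adjusted p = 0.0387). For each of the 3 genes both Gli1+ arrays exceeded every CD34+ array by over 1 log2 unit.

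These calls were lost with the pool number as a block, where the adjusted p was 0.0824 for Cep55, 0.11 for Tpx2 and 0.0991 for Plk1. In that fit 0 of all 9545 genes were higher and 1 was lower, so the whole comparison lost nearly all its calls. With a lone Gli1+ array the spread comes from the other groups only. The median difference over mitosis genes was then 1.02 without Gli1+ replicate 2 and 0.40 without Gli1+ replicate 3. Leaving out any 1 CD34+ array, or IFE replicate 2 or 3, gave a mitosis count of 0, and leaving out IFE replicate 1 gave 1. Of all genes, 0 were higher without any 1 CD34+ array or without IFE replicate 2. Without IFE replicate 3 it was 1 gene, and without IFE replicate 1 it was 18. Positive differences were found for 25 of the 29 mitosis genes, and for 4454 of all 9545 genes. For 13 of the mitosis genes there was no overlap between groups, where 13.5% of all genes were higher in this way and 17.9% lower. The median was 0.76, against -0.05 over all genes. By pool, 23 of 29 were higher in Gli1+ cells in pool 2 and 22 of 29 in pool 3, with medians of 0.44 and 1.11. Among all 9545 genes 4552 and 4433 were higher in these pools, with medians of -0.04 and -0.077. Replication genes gave no call, with a median of 0.24. An unadjusted p under 0.05 was found for 5 of them, and for 1666 of all 9545 genes. Without overlap 5 replication genes were higher and 4 lower. The largest of their differences was that of Uhrf1, 1.84 ± 0.45 with an adjusted p of 0.0796 (0.32 on its second kept probe), and the most negative that of Fen1, -0.99 ± 0.36 with an adjusted p of 0.202.

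Among the wider mitosis genes Sgo1 rose in Gli1+ cells, at 8.71 and 8.67 against 6.10, 6.05 and 5.94 (2.66 ± 0.29, adjusted p = 0.0191, 0.0711 with the pool number as a block). Its Gli1+ arrays were within 0.05 log2 units of each other. Leaving out CD34+ replicate 1, 2 or 3 lost the call (adjusted p = 0.0549, 0.0527 and 0.0722), as did leaving out IFE replicate 2 (0.0556). The mean of probes, array weights and a fit of 2 groups only lost it too (adjusted p = 0.0627, 0.117 and 0.125). No wider replication or cell cycle transcription gene was called (10 and 1 with an unadjusted p under 0.05). Langerhans cell and macrophage markers, with 7 of 12 measured, summed to 1105 and 2162 intensity units on the Gli1+ arrays with 6 detected, to 630 to 759 on CD34+ arrays and to 483 to 674 on IFE arrays with 4 to 6 detected. The fibroblast list summed to 466 and 889 on Gli1+ arrays. Melanocyte markers summed to 196 and 371 there, and 1 of 3 measured was higher than in IFE cells (2.39 log2 units, adjusted p = 0.0194). The 1 measured red blood cell marker of 4 stood at 89.97 and 288.5 intensity units on Gli1+ arrays, 39.6 to 52.5 on CD34+ arrays and 29.4 to 34.3 on IFE arrays, and was higher than in IFE cells (2.35 log2 units, adjusted p = 0.0341). The part of these cells in the differences was not tested.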

How the data were processed

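RNA of 8 sorted samples was extracted with Trizol, amplified with the Nugen Ovation Pico kit and, per the submitters' processing notes, read with GenomeStudio 2010.3. Per the file headers, the deposited matrix gives for each probe a mean intensity, its standard error over beads, the bead count and a detection p-value, with no background correction or normalisation seen in the values. The deposited log2 values equal the log2 of those intensities and served as an alternative. The genome build behind the probes is not given in the sources used here, and coordinates are given for RefSeq promoter windows only.

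Probes were named by the platform annotation. Background correction and quantile normalisation used neqc (offset 16, negative controls inferred from detection p-values) in limma 3.58.1 under R 4.3.3. Detection at p under 0.05 on 2 or more arrays was required, which kept 14252 probes, and the probe with the highest mean was used per gene. All 8 arrays were fitted with 1 mean per group (lmFit, eBayes, 5 residual and 4.84 prior degrees of freedom). Tests were two-sided, with Benjamini-Hochberg adjustment over 9545 genes within each comparison and a threshold of 0.05. The fit was tested on simulated data with changes planted in CD34+ cells and read in CD34+ minus IFE only. Comparisons with Gli1+ cells were not covered by that test. Where no array of the dimmer group detected a probe, the fold is "at least", against the lowest detected level per array.

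Same-numbered samples share a pool of animals by design. Correlations of their deviations from the group means were -0.03 to 0.09 over 7 pairs, and the block was an alternative. Other alternatives changed the background, normalisation, filter, probe choice, array weights and groups fitted, or left out each array. Members and lists were chosen with earlier results of these data known. Genes named with every array's value are those past the threshold, and per role without a call the one with the highest mean. Of the wider lists, up to 4 called genes with the smallest adjusted p are named. Other genes are named as the ends of a range, by their role or as not detected, and Mcm5, Pcna, Mad2l1 and Kif20a were added after their values were seen.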

Additional observations from a re-analysis of the deposited data

How the results depend on the processing

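For CD34+ minus IFE, 11 mitosis genes were past the threshold. The count was 7 with a normexp offset of 50, 7 with no background correction, 6 with median centring and 5 with the deposited log2 values. It was 7 with the replicate block, 18 with array weights and 18 with 2 groups only. In the same order, 2.44%, 2.67%, 0.953%, 0.859%, 1.33%, 4.32% and 4.01% of all genes were lower, against 1.85% in the main fit. The mitosis count was 3 or 4 when single CD34+ or IFE arrays were left out. The median difference was -0.70, -0.58 and -0.46 with the normexp offset, no background correction and the deposited values, -1.41 with the stricter filter (detection p under 0.01 on 3 arrays), -1.05 with the mean of probes, -1.12 with every probe on its own, and -1.39 to -1.12 without single arrays. The replication count was 1, 1, 2 and 2 with the normexp offset, no background correction, array weights and 2 groups only, and 0 to 2 without single arrays. Its median was -0.38, -0.34, -0.39 and -0.19 with the normexp offset, no background correction, median centring and the deposited values, and -0.71 to -0.50 without single arrays. Median centring moved the median of all genes from -0.01 to 0.13 here and from -0.05 to 0.10 in Gli1+ minus IFE.

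For Gli1+ minus IFE the mitosis count of 0 became 2 with the normexp offset and 2 with no background correction. There 1.05% and 1.16% of all genes were lower, against 0.859% in the main fit. The mitosis count was 1 with no filter, the stricter filter, the mean of probes or every probe. In the same order 0.301%, 1.28%, 0.87% and 0.646% of all genes were lower. Without single CD34+ or IFE arrays the mitosis count was 0 or 1, where at most 0.411% of all genes were lower. The median was -0.28, -0.21, -0.29, -0.27, -0.081 and -0.53 in turn with the normexp offset, without background correction, with median centring, with cyclic loess, with the deposited values and with the stricter filter, and -0.77 to -0.22 without single arrays. The replication count of 1 became 0 with median centring, cyclic loess, the deposited values, the mean of probes and every probe. There 0.377%, 0.513%, 0.126%, 0.87% and 0.646% of all genes were lower. With the replicate block, array weights and 2 groups only it was 0 too, where 0.126%, 0% and 0% of all genes were lower. The replication count was also 0 without any single CD34+ or IFE array. Its median was 0.071 with cyclic loess and -0.58 to 0.048 without single arrays.

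For Gli1+ minus CD34+ the mitosis count of 3 became 2 with the deposited values and 1 with no filter. There 1.01% and 0.796% of all genes were called in either direction, against 1.42% in the main fit. The mitosis count became 0 with the replicate block, array weights and 2 groups only, where 0 of all genes were higher and 1 was lower. Without single CD34+ or IFE arrays it was 0 or 1. The median was 0.40, 0.33, 0.90 and 0.42 with the normexp offset, no background correction, cyclic loess and the deposited values, and 0.40 to 1.02 without single arrays. The replication count was 1 with the normexp offset, where 2.23% of all genes were called, and 0 without any single CD34+ or IFE array. Its median was -0.051 to 0.38 without single arrays.

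The sign turned for Cdc25c in CD34+ minus IFE without IFE replicate 1 (0.16, in a range from -1.17), when its other probe was used, and for Cdc20, not called, with median centring (0.012), the deposited values (0.059) and without CD34+ replicate 2 (0.20, where the range without single arrays began at -0.66). The causes of the other changes were not tested. The deposited values and those with no background correction keep the background signal, which by construction shrinks differences of dim probes. The number of arrays, 8 in all and 2 of Gli1+ cells, limits the precision, and probes near the detection limit give only bounds.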
